A study of Saccharomyces cerevisiae with 14 samples.

Results

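Fuzzy nucleosomes of wild-type budding yeast were taken as the calls of the WT list whose dyad, the centre of the nucleosome, had an SD of 42 bp or more. Calls also needed an occupancy of at least 0.25, where 1 is the median call of the list. The rule gave 878 calls, or 1.44% of the 61054 nuclear calls past the occupancy minimum. The WT list held 63279 nuclear calls outside the ribosomal DNA repeat of chromosome XII (451000 to 469000). Each fuzzy call was placed relative to the annotated genes, and the nearest call within 73 bp was read in the lists of 4 SNF2 mutants.

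A nucleosome is DNA wrapped around a core of histones, and its dyad marks the middle of the wrapped stretch. In yeast genes, nucleosomes line up from a well-placed first nucleosome beside a depleted promoter, and the order of the array decays into the gene body. Remodelling enzymes such as SWI/SNF use ATP to slide or evict nucleosomes, and others space them evenly. A wide SD means that the mapped dyads of a call were scattered along the DNA. In a culture, a position that differs between cells and one that moves within each cell cannot be told apart.

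Chromatin of strain BY4741, grown in rich medium at 30 °C and crosslinked with formaldehyde, was cut with micrococcal nuclease, which digests the DNA between nucleosomes, and DNA of single nucleosomes was sequenced. The mutants were labelled dAT (3 samples), dSnAC (3 samples), CD (3 samples) and dSnf2 (2 samples), beside WT (3 samples). SNF2 encodes the ATPase subunit of SWI/SNF. CD is the catalytically dead substitution K798A, dSnf2 is the deletion, and the labels dAT and dSnAC are taken as loss of the AT-hook region and of the SnAC domain. How the alleles were built is not given in the labels.

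Each strain had 1 list of calls on merged replicates, which rested on 39312292 reads in dAT, 31881933 in dSnAC, 59767406 in CD, 41240133 in dSnf2 and 64981328 in WT. With 1 list per strain no difference between strains has a replicate check, and no p-value is given. Intervals below are 95% intervals, exact binomial for shares and order-statistic for medians. They cover the counting of calls, which are not independent replicates, and say nothing of the spread between cultures. At the median call, counting error gives a dyad spread evenly over 147 bp an SE of its SD of 0.752 bp in dAT, 0.837 bp in dSnAC, 0.613 bp in CD, 0.739 bp in dSnf2 and 0.591 bp in WT. Dyads within a list were never closer than 148 bp, so neighbouring calls do not overlap.

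The SDs that chose the fuzzy calls are described here without a test. Their median was 42.7 bp, against 29.6 bp for the other 60176 calls past the occupancy minimum. For scale, dyads spread evenly over 147 bp, the length of a call, have an SD of 42.4 bp. Over which window the SD was taken is not given in the sources, and the highest SDs exceed that value, so it is no upper limit. Most fuzzy calls lay close to the threshold: 562 had an SD of 42 to 43 bp, 208 of 43 to 44 bp, 67 of 44 to 45 bp and 41 of 45 bp or more. Just inside were calls in TAZ1 (42.001 bp) and FAS1 (42.001 bp), and just outside were calls in BCK1 (41.996 bp) and SPC97 (41.996 bp). A further 1075 calls had SDs of 41 to 42 bp, so the threshold cuts through a continuous tail. The most scattered call, at 56.6 bp, lay in ENO1 (enolase), a gene with a near-identical copy, ENO2, so its value is uncertain.

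**Figure D1:**
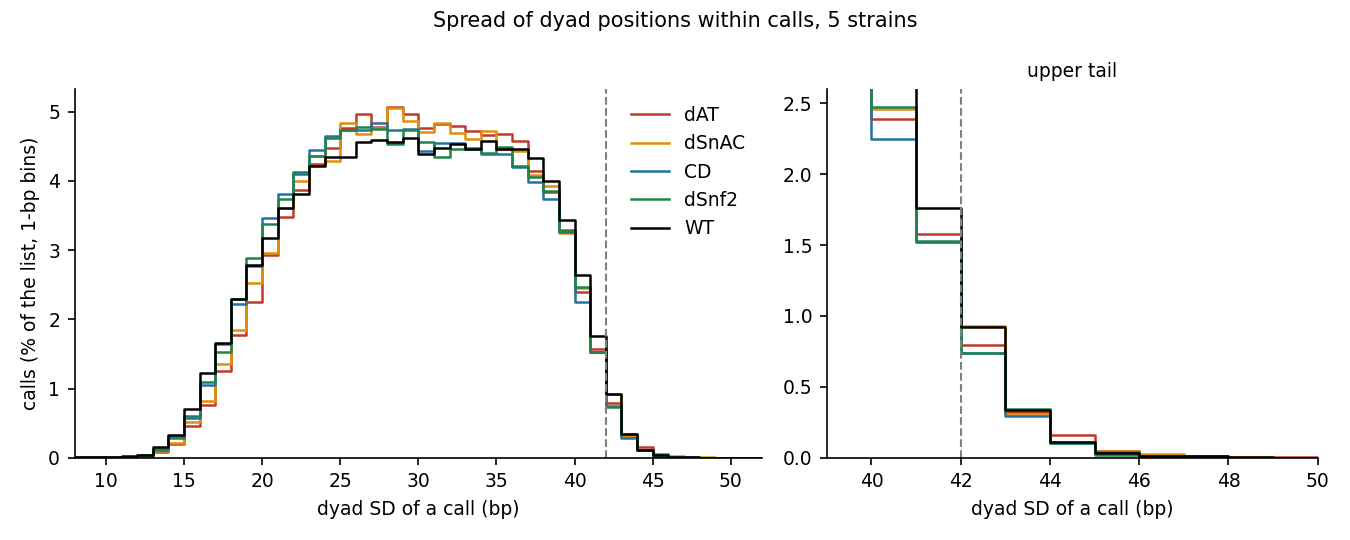
Distribution of the dyad SD (bp, x axis) over the calls of each list past the occupancy minimum (% in 1-bp bins, y axis), with the upper tail enlarged on the right. Colours are the 4 mutants and black is WT; the dashed line is the threshold of 42 bp, above which the WT list held 878 calls past the occupancy minimum.

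Every list had such a tail. By the same rule, 827 calls were fuzzy in dAT (1.36% of the calls past the occupancy minimum), 882 in dSnAC (1.45%), 733 in CD (1.20%), 748 in dSnf2 (1.23%) and 878 in WT (1.44%). The shares in CD and dSnf2 were thus below that in WT, with upper interval bounds of 1.29% and 1.32% against a lower bound of 1.35% in WT. The intervals in dAT and dSnAC overlapped that in WT.

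Occupancy was part of the rule and is likewise only described. Fuzzy calls had a median occupancy of 0.870, against 1.01 for the other calls. The share of fuzzy calls was 4.95% at an occupancy of 0.25 to 0.5, 2.6% at 0.5 to 0.75, 2.02% at 0.75 to 1, 0.961% in the class above it and 0.167% among the strongest calls. In reads their median was 896, against 1045 for the others. The occupancy minimum had removed the weakest calls, since 1159 calls had an SD of 42 bp or more without it.

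Past the occupancy minimum, fuzzy calls lay more often inside protein-coding genes than calls in general. There lay 755 of them (86.0%), against 78.2% of all calls past the minimum. The direction depended on the minimum: without it 66.5% of 1159 fuzzy calls lay in genes, against 76.0% of all calls, and at a threshold of 45 bp 61.0% of 41 did. With the minimum, 1.58% of the calls in genes were fuzzy (1.47% to 1.70%). Between genes the share was 0.925% (119 of 12867 calls). It depended on which gene ends faced each other. Between divergent genes, whose promoters face each other, 16 of 3995 calls were fuzzy (0.401%). Between tandem genes 40 of 6488 were (0.617%), and between convergent genes, where 2 transcripts end, 62 of 2322 (2.67%, 2.05% to 3.41%). Within 300 bp upstream of a start codon only 18 of 5575 calls were fuzzy (0.323%), while within 200 bp past a stop codon 69 of 3810 were (1.81%). Past the minimum, promoter-side nucleosomes were thus rarely fuzzy, and calls between convergent genes were fuzzy more often than calls inside genes taken as a whole. Inside genes and 1000 bp or more from the start codon the share was 3.27% (633 of 19357 calls), within the interval of the convergent calls. The shares between genes are given with the minimum only, and without it they may differ.

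Inside genes, the share grew with distance from the start codon. In the first 200 bp 9 of 7502 calls were fuzzy (0.120%, 0.0549% to 0.228%). Over the first 1000 bp the share was 0.430%, from 1000 to 2000 bp 2.15%, from 2000 to 3000 bp 4.43%, from 3000 to 4000 bp 6.17%, and from 4000 bp on 6.58% (82 of 1247 calls). The median fuzzy call in a gene sat 1951 bp from the start codon in a gene of 3138 bp, against 790 bp in a gene of 1836 bp for the other calls in genes. The typical SD behind this followed the same course: the median call had an SD of 22.2 bp in the first 200 bp and 38.6 bp from 4000 bp on.

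**Figure D2:**
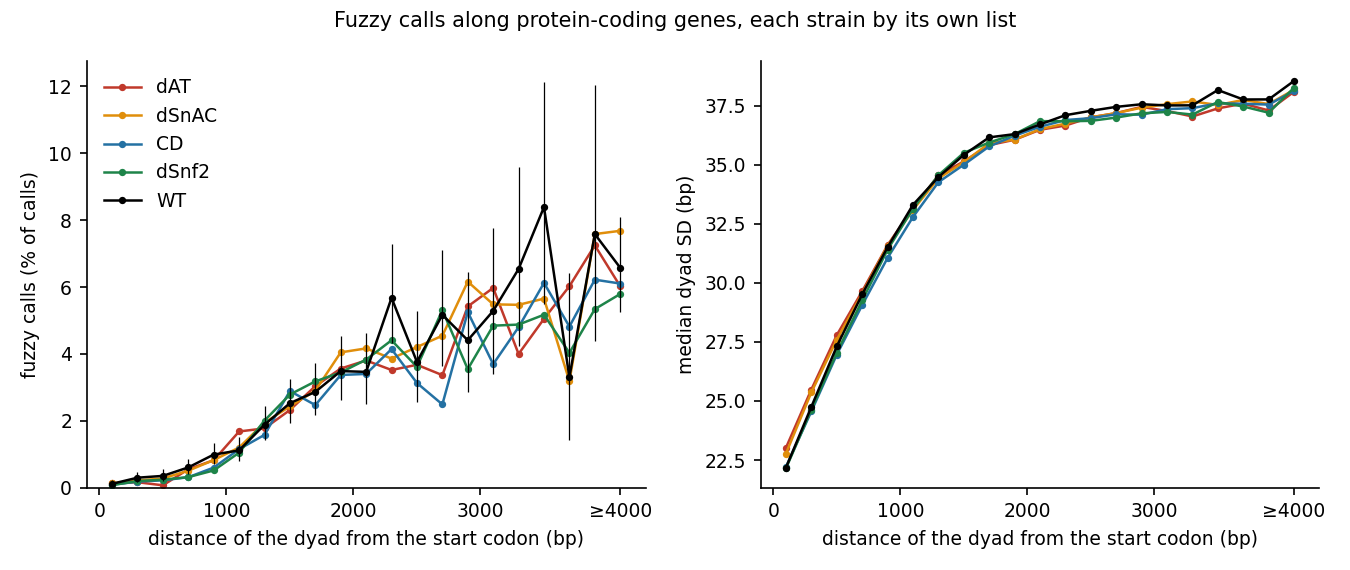
Share of calls that are fuzzy (%, left y axis) and median dyad SD (bp, right y axis) by distance of the dyad from the start codon (bp, x axis, 200-bp bins, the last point holding all calls from 4000 bp on), for each list by its own calls. Bars are exact 95% binomial intervals for WT; in all 5 lists the share is near 0 beside the start codon and 5.79% to 7.68% from 4000 bp on.

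Distance from the start codon and gene length go together, so both were read at once. Among calls 1000 to 2000 bp from the start codon, 1.66% were fuzzy in genes of 1000 to 2000 bp, 2.49% in genes of 2000 to 3000 bp, 2.71% in genes of 3000 to 4000 bp, 2.06% in genes of 4000 to 6000 bp and 3.90% in longer genes (8 of 205, 1.70% to 7.54%). The intervals of the 4 longer classes overlapped. In the first 1000 bp, genes over 6000 bp had no fuzzy call among 221, and genes of 1000 to 2000 bp had 68 of 12744 (0.534%). In long genes the fuzzy calls thus lay far from the start codon and not throughout the gene. Nearness to the stop codon also counted. Among calls at least 1000 bp from the start codon, 1.18% were fuzzy in the last 200 bp of the gene, 2.08% at 200 to 400 bp from the stop, 3.53% at 400 to 1000 bp, 4.42% at 1000 to 2000 bp and 4.96% farther away. Cut into 5 equal stretches, genes had 0.196%, 0.769%, 2.02%, 3.199% and 1.91% fuzzy calls from start to stop.

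Fuzzy calls lay in 515 genes. Of the genes with a call, 371 held 1 fuzzy call, 89 held 2, 32 held 3, 12 held 4, 8 held 5, 2 held 7 and 1 held 8. FAS1, the beta subunit of fatty acid synthase, had 8 fuzzy calls of 32 over its 6156 bp (chromosome XI). UTP20, a ribosome assembly factor, had 7 of 40, and DYN1, the dynein heavy chain and with 12279 bp the longest of these genes, 7 of 63. NFT1, which encodes a putative ABC transporter, had 5 of 19. Each of NUM1 (nuclear migration), SEC7 (vesicle traffic), ACC1 (acetyl-CoA carboxylase), BLM10 (a proteasome activator), HOB2 and TEL1 (a checkpoint kinase) had 5. By share of calls, HRP1, an mRNA cleavage factor, led with 4 of 9, followed by PLB3, a phospholipase B, with 4 of 10. FCY2 (a purine and cytosine permease), GAS1 (a cell wall glucan transferase) and YNL115C each had 3 of 10. These 5 genes are of moderate length, 1602 to 2061 bp.

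The most scattered calls of at least 0.5 occupancy in named genes were spread over unrelated functions. GLO4, a mitochondrial glyoxalase, came first with an SD of 47.3 bp (chromosome XV, dyad at 407881, 817 bp into a gene of 858 bp). AIT1 had 47.1 bp, FRK1 (a kinase) 46.3 bp and PDR12 (a weak-acid exporter) 46.1 bp. CSF1 had 45.9 bp, NRD1 (transcription termination) 45.8 bp, and GAA1 (GPI-anchor attachment) and PMC1 (the vacuolar calcium pump) 45.7 bp each. SKN1 (beta-glucan synthesis) and NAM7 (the helicase of nonsense-mediated decay) had 45.5 bp each.

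Fuzzy calls sat among other scattered nucleosomes. The median SD of their direct neighbours was 38.98 bp, against 29.9 bp for neighbours of other calls. Among these neighbours 196 of 1756 were fuzzy themselves (11.2%), against 1.29% for the other calls. Part of this goes with the place: within genes and 1000 bp or more from the start codon, neighbours of fuzzy calls had a median SD of 39.4 bp and were fuzzy in 13.1%, against 35.6 bp and 3.03% for neighbours of other calls there. Most fuzzy calls still stood alone: 691 had no fuzzy neighbour, 81 pairs were adjacent, and runs of 3 occurred 7 times. The longest run, of 4 calls, covered the end of GAS1 and the gap before PSE1 (chromosome XIII, dyads from 888277 to 888846). Runs of 3 lay in FAS1, HRP1, NUP133 (a nuclear pore subunit), YBT1 (a vacuolar transporter), ADE2 (adenine synthesis), YEL025C and YER188W.

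The spacing around fuzzy calls was uneven. The wider of the distances to the neighbouring dyads had a median of 191 bp, against 177 bp for other calls, and was 200 bp or more in 47.2%, against 30.2%. The share of fuzzy calls was lowest where the flanking dyads were 330 to 350 bp apart, at 0.775%. It was 2.49% where they were under 310 bp apart, so that 3 calls were packed at nearly the smallest distance a list can hold, and 2.54% where they were 370 to 400 bp apart. Within genes and 1000 bp or more from the start codon the same 3 shares were 5.23% (under 310 bp), 1.83% (330 to 350 bp) and 4.75% (370 to 400 bp). Fuzzy calls were thus found both where a nucleosome had spare room and where the calls were tightest.

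In the mutants many fuzzy calls had no counterpart. No call lay within 73 bp of 175 fuzzy calls in dAT (19.9%, against 3.00% of all calls) and 168 in dSnAC (19.1%, against 2.71%), 158 in CD (18.0%, against 2.57%) and 150 in dSnf2 (17.1%, against 2.71%). The nearest dyad was then a median of 90 bp away in dAT, 89 bp in dSnAC, 91 bp in CD and 90 bp in dSnf2, so a call was usually present just past the matching distance. Calls that were fuzzy by the same rule in a mutant lacked a WT call within 73 bp about as often. The shares were 19.6% for dAT, 18.4% for dSnAC, 16.1% for CD and 15.1% for dSnf2, so missing counterparts came with choosing on either list. In all 4 mutants 544 WT-fuzzy calls had a match, and 35 had none in any.

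Of the matched calls, about 3 in 10 were fuzzy in the mutant too. The count was 191 of 703 in dAT (27.2%, against 1.17% of all matched calls), 218 of 710 in dSnAC (30.7%, against 1.26%), 212 of 720 in CD (29.4%, against 1.06%) and 193 of 728 in dSnf2 (26.5%, against 1.09%). Of the matched fuzzy calls, 63.3% had an SD of at least 40 bp in dAT and 67.6% in dSnAC, 64.6% in CD and 63.0% in dSnf2. Over all matched calls the shares were 4.72%, 4.88%, 4.44% and 4.70% in the same order. An SD under 30 bp was found for 4 matched fuzzy calls in dAT, 5 in dSnAC, and for 7 in CD and 11 in dSnf2. Over all matched calls 51.7% (dAT) to 54.4% (CD) had such an SD.

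The median SD of the matched calls was lower in each mutant. It was 40.7 bp in dAT, 41.01 bp in dSnAC, 40.8 bp in CD and 40.7 bp in dSnf2, against 42.6 to 42.7 bp in WT. The median difference from WT was -2.01 bp in dAT (-2.28 to -1.83), -1.81 bp in dSnAC (-1.98 to -1.57), -1.91 bp in CD (-2.06 to -1.71) and -2.18 bp in dSnf2 (-2.32 to -1.94). For the other calls it was 0.369 bp in dAT, 0.263 bp in dSnAC, -0.124 bp in CD and -0.0607 bp in dSnf2. Since the calls were chosen for high values in WT, lower values in another list follow in part from the choice. The choice was therefore turned round, and calls fuzzy in a mutant were read in WT. Of those matched, 28.3% of the dAT-fuzzy calls, 30.0% of the dSnAC-fuzzy, 34.3% of the CD-fuzzy and 29.8% of the dSnf2-fuzzy were fuzzy in WT. Their median difference, now WT minus mutant, was -2.20 bp for dAT, -1.88 bp for dSnAC, -1.67 bp for CD and -1.91 bp for dSnf2. Differences of about the same size and sign thus came from choosing on either list. This holds for matched calls, and by their own lists CD and dSnf2 had a smaller share of fuzzy calls than WT, as given above.

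**Figure D3:**
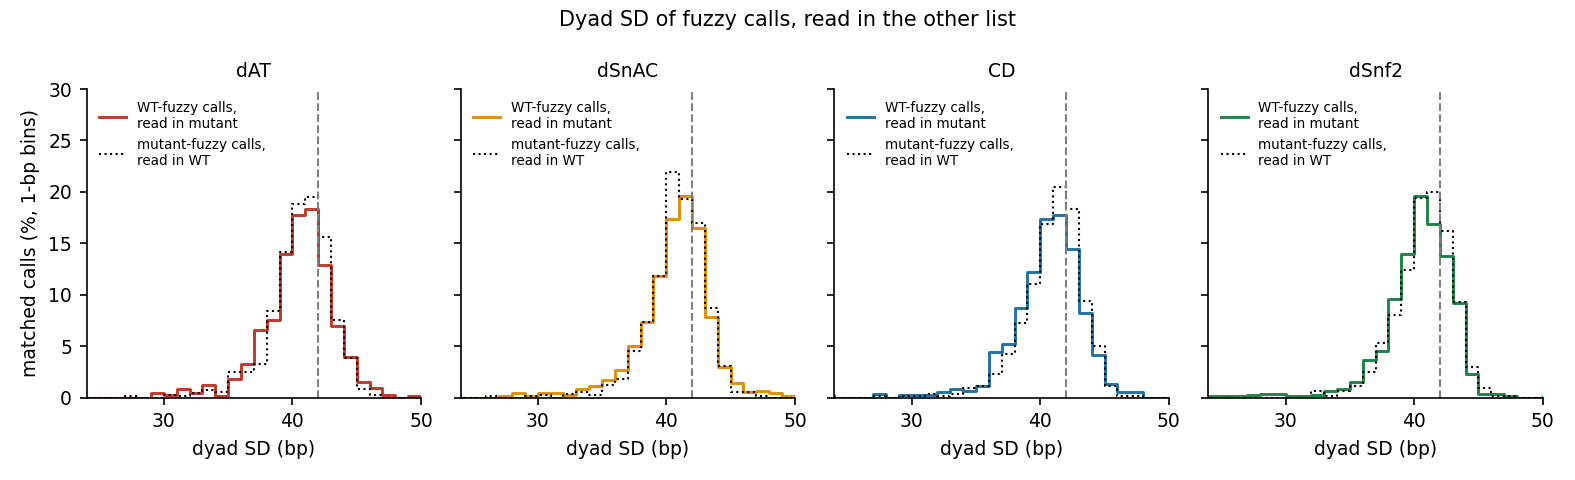
Dyad SD (bp, x axis) of fuzzy calls read in the list that did not choose them (% of matched calls in 1-bp bins, y axis), 1 panel per mutant. The coloured line is WT-fuzzy calls read in the mutant and the dotted line is mutant-fuzzy calls read in WT; the curves nearly coincide, with medians of 40.7 to 41.01 bp for the coloured and 40.9 to 41.2 bp for the dotted lines.

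The same held for position. The dyad lay 20 bp or more from its WT place for 298 fuzzy calls in dAT (42.4%, against 8.67% of all matched calls) and 300 in dSnAC (42.3%, against 8.19%), 268 in CD (37.2%, against 8.49%) and 289 in dSnf2 (39.7%, against 8.72%). The median displacement was 11 bp in dAT, 10 bp in dSnAC, 7 bp in CD and 8 bp in dSnf2, against 2 or 3 bp for other calls. Mutant-fuzzy calls read in WT were displaced by 20 bp or more in 38.6% (dAT), 36.2% (dSnAC), 36.7% (CD) and 41.6% (dSnf2). In genes, displacements of that size went downstream and upstream in nearly equal number: 125 and 131 in dAT, 131 and 130 in dSnAC, 127 and 107 in CD, and 136 and 119 in dSnf2. Of the 544 calls matched in all 4 mutants, 188 stayed within 20 bp in every mutant and 86 were displaced in every mutant, 68 of these in 1 common direction. For other calls matched in all 4, displacement in every mutant occurred in 2.59%.

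Mutants resembled each other in a fixed pattern at these 544 calls. Their dyads were 20 bp or more apart in 25% of the calls between dAT and dSnAC and in 22.8% between CD and dSnf2. For the other 4 pairs of mutants the share was 31.2% to 39.5%. The median absolute SD difference was likewise smallest within these pairs, at 1.10 bp between dAT and dSnAC and 1.02 bp between CD and dSnf2. The other pairs gave 1.32 to 1.52 bp. The rule used no mutant SD or occupancy. The 544 calls had to have a dyad within 73 bp of the WT dyad in every mutant, so the dyad distances are not free of a choice on mutant values. The same order of pairs was found at the other calls, where the shares were 4.48% for dAT with dSnAC, 3.997% for CD with dSnf2 and 6.01% to 7.23% for the remaining pairs.

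The 544 calls formed a graded series by the number of mutants in which they were fuzzy. In all 4 mutants 37 were fuzzy, and these are called stable below for their SD only. Under 42 bp in all 4 were 231, and between these 132 were fuzzy in 1 mutant, 98 in 2 and 46 in 3. Such counts are not given for other calls. The median WT SD was 43.2 bp for the 37 and 42.5 bp for the 231, so the 37 also began farther above the threshold. Of the 37 stable calls, 27 lay in genes (72.97%, against 85.8% of the 544), at a median of 2331 bp from the start codon and 2 of them in its first 1000 bp. Of those outside genes, 6 lay between convergent genes. The dyads of the 37 moved by a median of 3.5 bp, and their flanking dyads were 332 bp apart. Not all stayed in place. In DYN1 the matched dyads lay -66 bp (dAT), 62 bp (dSnAC) and -68 bp (dSnf2) from the WT dyad. At the FCY2 call 1195 bp from the start codon they lay -36 to -30 bp away in all 4. Among the 231, the median distance from the start codon was 1649 bp, 46 lay in the first 1000 bp of a gene, the dyads moved by a median of 24.5 bp and the flanking dyads were 379 bp apart. Among the stable calls, chosen for mention after their values were seen, was one between UBC9 and SYO1, with SDs of 46.9 bp in dAT, 47.1 bp in dSnAC, 47.1 bp in CD and 47.4 bp in dSnf2, against 44.9 bp in WT. In GAA1 the SD was 45.4 bp in dAT, 44.1 bp in dSnAC, 44.6 bp in CD and 43.8 bp in dSnf2, against 45.7 bp in WT. The dSnAC call matched there lay 65 bp away.

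Occupancy at fuzzy calls barely differed between mutants and WT over all places. The median log2 ratio of mutant to WT was 0.04 in dAT and 0.03 in dSnAC, 0.01 in CD and 0.00 in dSnf2. A log2 ratio of 0.58 or more was found at 34 calls in dAT (4.84%, against 2.94% of all matched calls) and 14 in dSnAC (1.97%, against 1.24%), 12 in CD (1.67%, against 0.561%) and 9 in dSnf2 (1.24%, against 0.485%). A log2 ratio of -0.58 or less was found at 52 in dAT (7.40%, against 8.29%) and 31 in dSnAC (4.37%, against 4.32%), 18 in CD (2.5%, against 1.10%) and 8 in dSnf2 (1.10%, against 0.490%). Losses in dAT and dSnAC were thus near or below the background, and in CD and dSnf2 both directions were above it on small counts.

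By place the medians went in opposite directions. For fuzzy calls in the first 1000 bp of genes the median log2 ratio was 0.26 in dAT (0.15 to 0.35) and 0.21 in dSnAC (0.14 to 0.30), 0.13 in CD (0.08 to 0.19) and 0.06 in dSnf2 (0.03 to 0.12). For the other calls there it was 0.07 in dAT and 0.06 in dSnAC, 0.04 in CD and 0.01 in dSnf2. Among these other calls the gain was graded by SD. For dAT it was 0.05 under 30 bp, 0.12 at 30 to 36 bp, 0.16 at 36 to 40 bp and 0.21 at 40 to 42 bp. Just short of the threshold, at 40 to 42 bp, dSnAC had 0.19, CD 0.13 and dSnf2 0.08. Each value at 40 to 42 bp lay inside the interval of the fuzzy calls of that mutant, so the gain was not particular to fuzzy calls. Farther into genes the fuzzy calls had 0.05, 0.03, 0.01 and 0.01 in dAT, dSnAC, CD and dSnf2, close to the other calls. Outside protein-coding genes they had -0.46 in dAT (-0.66 to -0.33) and -0.37 in dSnAC, -0.28 in CD and -0.11 in dSnf2. Other calls there had -0.38, -0.29, -0.19 and -0.10 in the same strains. The gain near gene starts and the loss between genes were therefore shared with other calls of the same place.

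Near gene starts the fuzzy calls were also weak in WT, with a median occupancy of about 0.8, so they were set beside other calls within 1 range of occupancy. At a WT occupancy of 0.5 to 1, the fuzzy calls of the first 1000 bp had a median log2 ratio of 0.32 in dAT (0.26 to 0.37) and 0.25 in dSnAC (0.18 to 0.34), 0.15 in CD (0.09 to 0.22) and 0.10 in dSnf2 (0.03 to 0.13). Other calls of that place and range had 0.22 in dAT and 0.18 in dSnAC, 0.14 in CD and 0.07 in dSnf2. Within the range the fuzzy calls were still weaker in WT, so occupancy was only roughly matched. For calls matched in dAT the WT medians were 0.77 for fuzzy and 0.85 for other calls. Turning the choice round, calls of that place that were fuzzy in the mutant had a median log2 ratio of mutant to WT of 0.13 in dAT (0.04 to 0.23) and 0.10 in dSnAC (0.04 to 0.20), 0.04 in CD (0.0026 to 0.15) and 0.03 in dSnf2 (-0.04 to 0.07). The intervals lay above 0 on either choice in dAT, dSnAC and CD, with smaller medians when the mutant list did the choosing. For dSnf2 the interval of the second choice included 0. The other WT calls of that place, over all occupancies, were themselves above 0, with medians from 0.01 (dSnf2) to 0.07 (dAT). For every mutant this background median lay inside the interval of the second choice. The second choice thus showed no gain at fuzzy calls beyond that of other calls near gene starts.

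**Figure D4:**
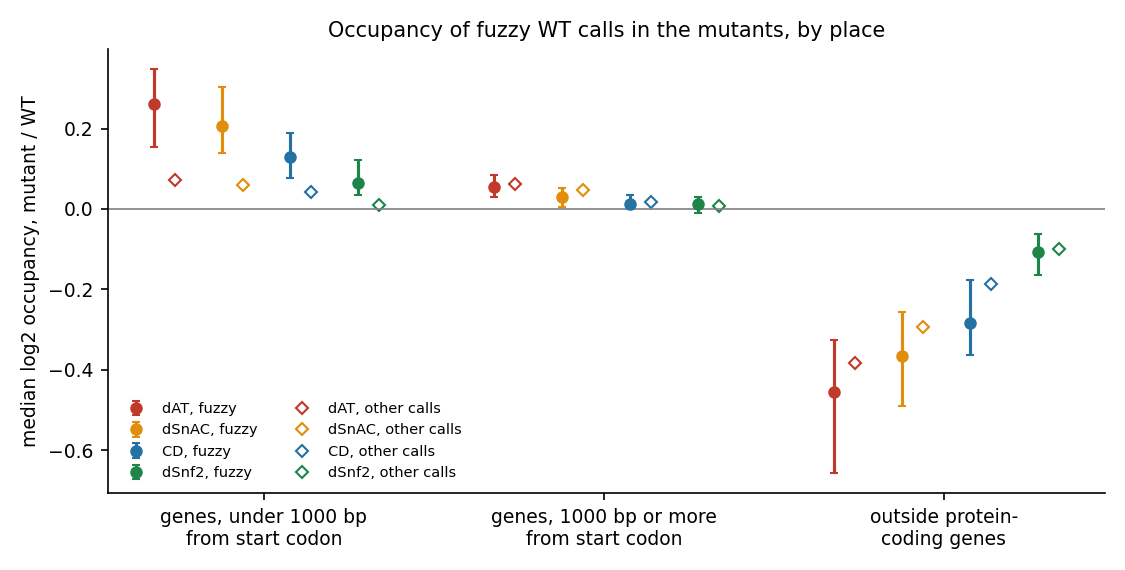
Median log2 ratio of mutant to WT occupancy (y axis) for fuzzy WT calls (filled circles, bars are 95% order-statistic intervals over calls) and other calls (open diamonds), by place (x axis) and mutant (colour). In the first 1000 bp of genes all medians of fuzzy calls lie above 0, from 0.06 in dSnf2 to 0.26 in dAT; outside protein-coding genes all lie below 0, from -0.46 in dAT to -0.11 in dSnf2.

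Fuzzy calls near gene starts were also fewer in the mutants' own lists. In the first 1000 bp of genes 90 calls were fuzzy in dAT (0.316%) and 102 in dSnAC (0.358%), 74 in CD (0.260%) and 71 in dSnf2 (0.2499%), against 122 in WT (0.430%, 0.357% to 0.513%). The upper bounds in CD (0.326%) and dSnf2 (0.315%) were below the lower bound in WT, and those in dAT (0.388%) and dSnAC (0.435%) were not. These counts owe nothing to a choice on WT. Between genes the shares were 1.01% in dAT and 1.02% in dSnAC, 0.707% in CD and 0.587% in dSnf2, against 0.925% in WT. From 4000 bp on they were 6.02% in dAT and 7.68% in dSnAC, 6.10% in CD and 5.79% in dSnf2, against 6.58% in WT, with intervals that overlapped. The WT-fuzzy calls of the first 1000 bp were fuzzy in 16.8% of matched cases in dAT and 19.1% in dSnAC, 13.3% in CD and 14.9% in dSnf2. Those farther into genes were so in 28.9% in dAT and 32.1% in dSnAC, 32.1% in CD and 28.0% in dSnf2.

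Single fuzzy calls with the largest gain in occupancy, taken by their median over the 4 mutants, lay upstream of genes, between convergent genes or in the first 1000 bp of genes. The call 600 bp upstream of SCW4, a cell wall protein gene, between it and PXR1 (chromosome VII, dyad at 1050558), had an occupancy of 1.07 in dAT and 1.08 in dSnAC, 1.24 in CD and 1.24 in dSnf2, against 0.310 in WT. Its SD was 36.3 bp in dAT, 37.6 bp in dSnAC, 27.1 bp in CD and 26.1 bp in dSnf2, against 42.5 bp in WT. A weak scattered position in WT thus had a full nucleosome within 35 bp in every mutant, and a sharply placed one in CD and dSnf2.

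The call 216 bp upstream of GPM1, between it and NNR2 (chromosome XI, dyad at 164601), had an occupancy of 0.796 in dAT and 0.984 in dSnAC, 1.17 in CD and 1.16 in dSnf2, against 0.450 in WT. GPM1 is the glycolytic phosphoglycerate mutase. Inside CDC19, the gene of pyruvate kinase, the call 217 bp from the start codon had 0.848 in dAT and 0.745 in dSnAC, 0.721 in CD and 0.683 in dSnf2, against 0.454 in WT. The call 595 bp upstream of GPD1, which makes glycerol phosphate, had 0.545 in dAT and 0.591 in dSnAC, 0.710 in CD and 0.744 in dSnf2, against 0.372 in WT. The matched dyads upstream of GPD1 lay 37 to 43 bp from the WT dyad. The other 4 of the 8 were in CRR1 (spore wall), PUT4 (proline permease) and OPT1 (glutathione and peptide transport), and between YHL041W and ARN1 (siderophore transport). The matched dyads lay -71 to -68 bp from the WT dyad in OPT1 and 55 to 61 bp from it in PUT4, so these are calls at different places. In PUT4 the occupancy in dAT was 0.257, against 0.267 in WT, so dAT had no gain there. In CRR1 the occupancy was 0.791 in dAT and 0.798 in dSnAC, 0.781 in CD and 0.684 in dSnf2, against 0.398 in WT. The median SD difference over the mutants was -11.7 to -5.02 bp at these 8 calls.

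The 8 largest losses all lay between genes, 5 of them between convergent genes. The call between STP2 and ERG11 (chromosome VIII, dyad at 119561) had an occupancy of 0.567 in dAT and 0.661 in dSnAC, 0.753 in CD and 0.889 in dSnf2, against 1.16 in WT. Its dyad stayed within 4 bp and its SD was 43.1 bp in dAT, 42.9 bp in dSnAC, 44.02 bp in CD and 44.1 bp in dSnf2, against 44.9 bp in WT, so it was lower in occupancy and past the threshold in all 5 lists. Between TED1 and NOT3, a subunit of the CCR4-NOT complex, the occupancy was 0.334 in dAT and 0.372 in dSnAC, 0.505 in CD and 0.599 in dSnf2, against 0.720 in WT. Between CLB1 and CLB6, both B-type cyclins, it was 0.538 in dAT and 0.597 in dSnAC, 0.745 in CD and 1.02 in dSnf2, against 1.08 in WT. The matched dyads there lay 60 bp (dAT), 55 bp (dSnAC), 58 bp (CD) and -3 bp (dSnf2) from the WT dyad. The other convergent pairs were GPP1 with RPL34B and PIG2 with AGE2. Between GPP1 and RPL34B the matched dyads lay 70 bp (dAT), 68 bp (dSnAC), 62 bp (CD) and 12 bp (dSnf2) from the WT dyad. The 5 convergent calls were all lowest in dAT or dSnAC and closest to WT in dSnf2.

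The remaining 3 were the calls between ATG41 and RPL36B, between GPD1 and GPM2, and between HHF1 and HHT1, the divergent genes of histones H4 and H3. Between GPD1 and GPM2 the matched dAT dyad lay 71 bp from the WT dyad. At the histone pair (chromosome II, dyad at 255933) the occupancy was 0.185 in dAT and 0.161 in dSnAC, 0.165 in CD and 0.220 in dSnf2, against 0.338 in WT. All 5 values are those of a depleted region.

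At a few fuzzy calls the matched call was far sharper in all 4 mutants, often with a displaced dyad. The call in SAM1, an S-adenosylmethionine synthetase gene (chromosome XII, dyad at 516014), had an SD of 29.6 bp in dAT, 30.0 bp in dSnAC, 23.5 bp in CD and 24.6 bp in dSnf2, against 46.1 bp in WT. Its dyad lay 25 to 27 bp lower on the chromosome in every mutant. SAM2 is nearly identical to SAM1, so reads may be split between them and the value is uncertain. In FCY2 the SD was 31.7 bp in dAT, 32.2 bp in dSnAC, 29.6 bp in CD and 29.4 bp in dSnf2, against 47.6 bp in WT, with matched dyads -26 to -22 bp away. In CUP9, a repressor gene, a call 48 bp past the start codon had 33.2 bp in dAT, 30.5 bp in dSnAC, 27.1 bp in CD and 27.4 bp in dSnf2, against 42.5 bp in WT. The matched CUP9 dyads lay -48 to -41 bp from the WT dyad. In ARP6, a gene of the SWR1 remodeller, the SD was 30.5 bp in dAT, 31.2 bp in dSnAC, 30.6 bp in CD and 28.4 bp in dSnf2, against 42.2 bp in WT. The others of the 8 were between ICL1 and RRT13, between MHO1 and TDH2 (a gene with near-identical copies), upstream of GPD1 and between the histone genes. The matched dyads lay 54 to 56 bp away between ICL1 and RRT13, and 56 to 70 bp away between MHO1 and TDH2, so these are calls at different places. WT occupancy was low in SAM1 (0.383), in FCY2 (0.291), between ICL1 and RRT13 (0.363), upstream of GPD1 (0.372) and between the histone genes (0.338). It was 0.714 between MHO1 and TDH2, 0.803 in CUP9 and 0.910 in ARP6. At these 8 calls every mutant value lay below that of WT, but the WT value is the one that was chosen for its size. Between the histone genes the mutants themselves differed, with 29.4 bp in dAT, 33.4 bp in dSnAC, 32.7 bp in CD and 37.8 bp in dSnf2, against 43.9 bp in WT. Across the 544 calls, 349 had a lower SD in all 4 mutants and 13 a higher one. These calls too were chosen for high WT values, so lower values elsewhere follow in part from the choice. The same WT value enters all 4 comparisons, so they are not separate checks. Such counts are not given for other calls.

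The genes richest in fuzzy calls, chosen by their WT count or share, had fewer in most mutants. Fewer calls in another list follow in part from that choice, and no genes chosen on a mutant list were read in WT. FAS1 had 2 in dAT and 4 in dSnAC, 2 in CD and 2 in dSnf2, against 8 in WT. Its median call had an SD of 38.7 bp in dAT, 39.5 bp in dSnAC, 38.2 bp in CD and 38.5 bp in dSnf2, against 39.7 bp in WT. Its median occupancy was 1.01 in dAT and 0.993 in dSnAC, 0.952 in CD and 0.9499 in dSnf2, against 0.814 in WT. UTP20 had 3 in dAT and 5 in dSnAC, 4 in CD and 4 in dSnf2, against 7 in WT, and HRP1 1, 1, 2 and 1 in dAT, dSnAC, CD and dSnf2, against 4 in WT. DYN1 had 5 in dAT and 3 in dSnAC, 8 in CD and 6 in dSnf2, against 7 in WT.

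PLB3, chosen for its high share in WT, had no fuzzy call in any mutant, against 4 in WT. Here too a lower count elsewhere follows in part from the choice. At the call 360 bp from its start codon the SD was 33.3 bp in dAT, 32.6 bp in dSnAC, 30.9 bp in CD and 31.1 bp in dSnf2, against 42.04 bp in WT, with the dyad at the same place within 1 bp. Its median call had an SD of 37.3 bp in dAT, 37.6 bp in dSnAC, 37.2 bp in CD and 34.7 bp in dSnf2, against 39.5 bp in WT. The mutants also had 12, 12, 11 and 11 calls in the gene (dAT, dSnAC, CD and dSnf2), against 10 in WT.

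**Figure D5:**
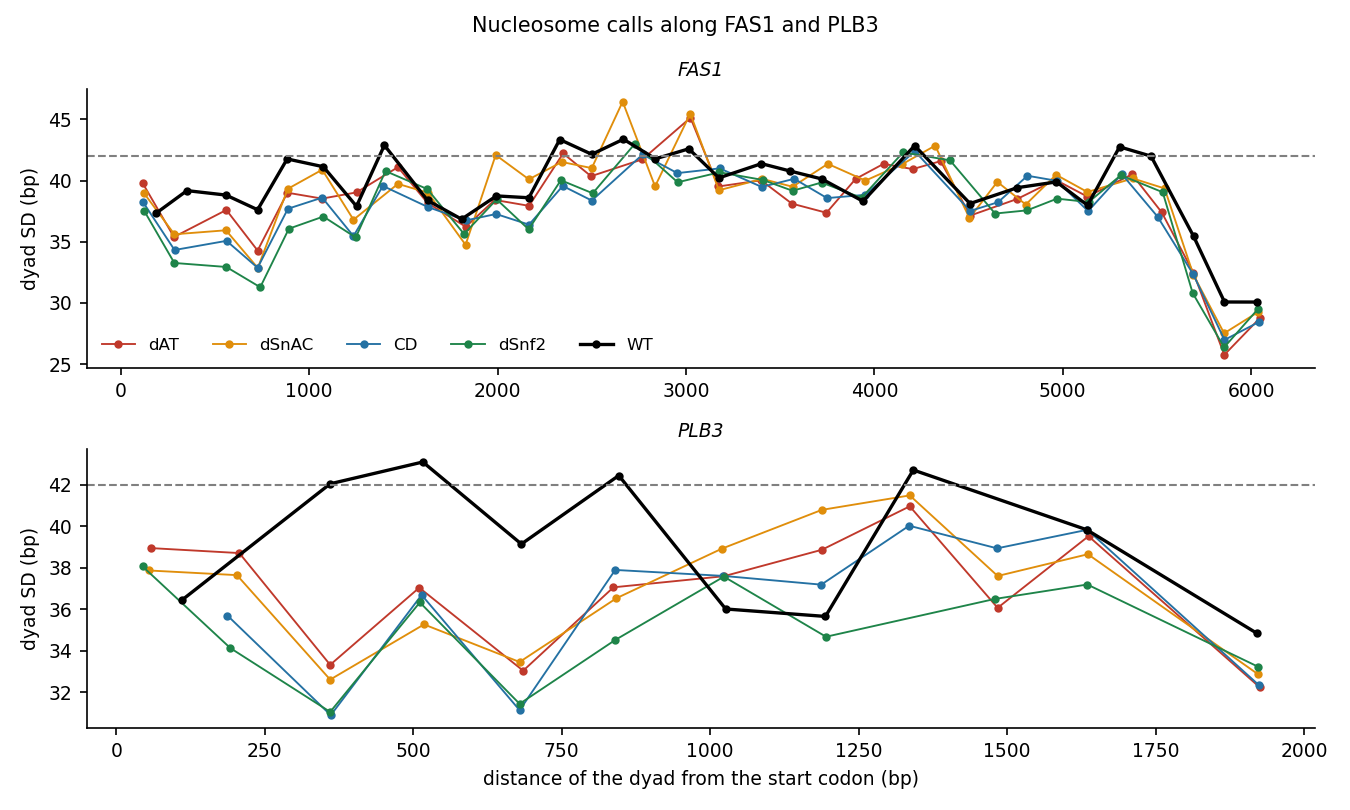
Dyad SD (bp, y axis) of each call along FAS1 (above) and PLB3 (below) by distance from the start codon (bp, x axis), 1 line per strain, WT in black. In FAS1 the lines of all strains run under and across the dashed threshold of 42 bp and drop close to the stop codon. In PLB3 4 WT calls and no mutant call lie above the threshold. Both genes were chosen for their fuzzy calls in WT.

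By gene function, 2 of 15 lists held more than 5 fuzzy calls. In 18 genes of glycolysis and fermentation 8 of 129 calls were fuzzy (6.20%, 2.71% to 11.9%), against 1.58% for all protein-coding genes. In the first 1000 bp of these genes 5 of 87 were (5.75%), against 0.430% for all genes. They lay in PFK1 (4 calls), ENO1, FBA1, PGI1 and CDC19. The whole list was scattered and thinly covered: its median SD was 36.8 bp in dAT, 36.5 bp in dSnAC, 36.3 bp in CD and 36.1 bp in dSnf2, against 37.8 bp in WT. Its median occupancy was 0.967 in dAT and 0.889 in dSnAC, 0.836 in CD and 0.786 in dSnf2, against 0.692 in WT. In FBA1, the aldolase gene, the occupancy was 0.912 in dAT and 0.811 in dSnAC, 0.805 in CD and 0.727 in dSnf2, against 0.641 in WT, with SDs of 38.7 bp in dAT, 38.6 bp in dSnAC, 37.3 bp in CD and 37.0 bp in dSnf2, against 42.6 bp in WT.

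In 25 genes of iron uptake 7 of 226 calls were fuzzy (3.10%, 1.254% to 6.28%), against 1.58% for all protein-coding genes, a share inside that interval. In the first 1000 bp 6 of 128 were (4.69%), against 0.430% for all genes. The 7 were each in a different gene: SIT1, FTR1, ARN2, FRE2, FET3, ENB1 and FRE5, which encode siderophore transporters, the iron permease and its oxidase, and reductases. In FET3, the oxidase gene, the occupancy was 0.882 in dAT, 0.747 in dSnAC and 0.885 in CD, against 0.405 in WT, and dSnf2 had no call within 73 bp. The matched FET3 dyads lay -56 bp (dAT), -52 bp (dSnAC) and -64 bp (CD) from the WT dyad, so these are calls at different places. In the mutants' own lists the iron genes had 5 fuzzy calls in dAT and 10 in dSnAC, 3 in CD and 3 in dSnf2, against 7 in WT, so the strains did not go one way. These 2 lists were picked out after the counts of 15 lists were seen, and the counts are small.

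The other 13 lists had 0 to 4 fuzzy calls each. Ribosomal protein genes had 3 of 510 calls (0.588%, in RPS22B, RPS0A and RPS7B), heat shock and chaperone genes 0 of 189, galactose genes 0 of 78, and respiration genes 1 of 201, in ATP5 of the ATP synthase. Genes of amino acid synthesis under Gcn4 had 4 of 274, meiosis genes 3 of 385, mating genes 2 of 234, phosphate genes 2 of 157, translation factors 1 of 83, histone genes 1 of 21 and cell wall mannoprotein genes 3 of 172. The phosphate list included 1 fuzzy call in PHO5, the acid phosphatase gene long used to study chromatin. Genes of the remodellers themselves had 3 of 135 calls (SWI/SNF subunits, in SWI1, SWI3 and SNF2) and 4 of 173 (RSC subunits, in STH1, SFH1 and RSC1), all 1000 bp or more from the start codon. SNF2 itself held 1 fuzzy call, 4055 bp from its start codon. It had an SD of 42.3 bp in dAT and no match in dSnAC and CD, and the matched dSnf2 call had an occupancy of 0.00607, as the gene is deleted there.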

How the data were processed

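Per the labels, the authors called nucleosomes on merged replicates (dAT 2 and 3, dSnAC 1 and 3, CD 1, 2 and 3, dSnf2 1 and 2, WT 1, 2 and 3), and build sacCer3 and the aligner Bowtie are named in the submitters' processing notes. For the caller and its parameters, name and settings are not given in the sources. Per the file headers, each deposited call has a dyad and its SD in bp, an occupancy, which is a coverage signal, and a conditional position, a fraction between 0 and 1 that was not used for any result. Occupancies were whole multiples of the smallest one in 100% of calls (tolerance 0.01), so each was read as a number of reads, with a median of 637 reads per call in dAT, 514 in dSnAC, 957 in CD, 659 in dSnf2 and 1030 in WT.

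Occupancies were divided by the median nuclear call outside the ribosomal DNA. Genes came from the RefSeq table of assembly R64 (6002 nuclear protein-coding genes), with strand read from the systematic name; distances are to the start codon, since no transcript starts are given. Each fuzzy call was matched to the nearest mutant dyad within 73 bp. With 1 pooled list per strain no test was possible, and sizes, shares and intervals are given. The matching and medians were tested on simulated data. Python 3.11.15, numpy 2.4.6, pandas 2.3.3 and scipy 1.17.1 were used.

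The fuzzy calls, gene lists and naming rules were chosen with earlier results of these data known. Named were the 10 most scattered calls of at least 0.5 occupancy in genes with a standard name; the 8 largest gains, the 8 largest losses of occupancy and the 8 largest decreases of SD by the median over the mutants, among calls matched in all 4; the 10 genes with most fuzzy calls and the 5 with the highest share among genes with 6 or more calls; and up to 3 genes per list. PGI1, CDC19, FRE2, FET3, ENB1 and FRE5 in the lists, the stable calls, the calls beside the threshold and the long runs were named after their values were seen. Alternatives changed the SD threshold, occupancy minimum, chromosome ends, matching, scaling and displacement size.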

Additional observations from a re-analysis of the deposited data

How the results depend on the processing

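No paired analysis was possible because each list merges its replicates. An SD threshold of 40 bp gave 3567 fuzzy calls and 45 bp gave 41, with 88.4% and 61.0% of them in protein-coding genes; that share was 66.5% with no occupancy minimum and 89.5% with a minimum of 0.5. Both 61.0% and 66.5% are below the share of all calls in genes, 78.2% with the minimum and 76.0% without it, so the excess in genes depends on these settings. Values below run in the order dAT, dSnAC, CD, dSnf2. The share fuzzy in the mutant was 48.9%, 51.5%, 48.7% and 49.8% at 40 bp, 18.5%, 17.2%, 16.0% and 17.2% at 45 bp, and 33.2%, 37.4%, 34.0% and 31.2% for matches within 40 bp; with no minimum it was 34.3%, 34.7% and 31.3% in dSnAC, CD and dSnf2. The median SD difference was -1.28, -1.16, -1.31 and -1.30 bp at 40 bp, -4.64, -5.59, -4.47 and -4.62 bp at 45 bp, and -1.58, -1.34, -1.52 and -1.68 bp within 40 bp; with no minimum it was -2.28 and -2.00 bp in dAT and dSnAC. Displacements of 20 bp or more made up 33.1%, 32.8%, 30.2% and 30.9% at 40 bp, 48.1%, 62.1%, 48.0% and 48.3% at 45 bp, 37.6%, 37.3%, 32.9% and 35.2% with no minimum, and 12.7%, 13.0%, 11.2% and 10.4% within 40 bp. Those of 30 bp or more made up 38.0%, 37.9% and 33.3% in dAT, dSnAC and CD.

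The median log2 occupancy ratio was on the other side of 0 in dAT with no minimum (-0.0477). There it was -0.0489, -0.0268 and -0.0207 in dSnAC, CD and dSnf2; at 45 bp it was 0.0693 in dSnAC and -0.0158 in CD; scaled to the mean call it was 0.0705, 0.0488 and 0.0279 in dAT, dSnAC and CD. The causes were not tested. Leaving out the outer 10 kb of chromosomes moved no result by more than its spread. Keeping mutual nearest calls only could change nothing and is no check. Dyads within a list are at least 148 bp apart, so every match within 73 bp is mutual. Counting error of single SDs is close to the distance between most fuzzy calls and the threshold, so membership of a call near 42 bp is uncertain at this depth. How far each culture's chromatin was digested was not analysed here.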

Other observations

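Some gene lists with few WT-fuzzy calls had other counts in the mutants' own lists. Mating genes had 2 fuzzy calls of 235 in dAT and 6 of 236 in dSnAC, 9 of 239 in CD and 5 of 236 in dSnf2, against 2 of 234 in WT. Genes of cell wall mannoproteins had 1 of 174 in dAT and 7 of 172 in dSnAC, 3 of 173 in CD and 3 of 171 in dSnf2, against 3 of 172 in WT. RSC subunit genes had 1 of 167 in dAT and 0 of 171 in dSnAC, 1 of 173 in CD and 0 of 172 in dSnf2, against 4 of 173 in WT. Over all protein-coding genes 1.46% of calls were fuzzy in dAT and 1.56% in dSnAC, 1.34% in CD and 1.41% in dSnf2, against 1.58% in WT. These differences are between single pooled lists and were not tested.

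Fuzzy calls were found on all 16 chromosomes. The share of calls that were fuzzy was lowest on chromosome I, at 0.902% (9 of 998 calls, 0.413% to 1.70%), and highest on chromosome XI, at 1.87% (66 of 3531, 1.45% to 2.37%). In the outer 10 kb of chromosomes it was 1.63% (9 of 553), close to the rest. Inside or within 100 bp of tRNA genes, 2 of 258 calls were fuzzy.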
